A study of Danio rerio with 9 samples.

Results

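The metabolic and orphan nuclear receptors were examined in kidneys of male and female zebrafish. Members were chosen by gene symbol alone: the NR0B, NR1H, NR1I, NR2A to NR2F, NR4A, NR5A and NR6A receptors, the peroxisome proliferator-activated receptors (PPAR), the retinoid X and retinoic acid receptors (RXR and RAR), HNF4, the estrogen-related receptors (ESRR), the thyroid hormone receptors (THR) and the ROR receptors. The rule found 60 of the 30628 genes in the table, under 59 symbols, because 2 overlapping gene models carry the symbol nr6a1a. One of the 60, nr2c2ap, matched by name only, since it encodes a protein that binds a receptor and is not itself one, which left 59 receptor genes. RNA was sequenced from whole kidneys of wild-type WIK fish aged 12 months, with 4 male and 5 female libraries. All fish carried the same wild-type label, and sex was the only difference that the labels gave between the groups. The comparison asked which of these receptors differed in transcript level between male and female kidneys.

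Nuclear receptors are transcription factors that carry a DNA-binding and a ligand-binding domain, and many of them sense lipids. The metabolic receptors bind fatty acids, oxysterols, bile acids, retinoids or thyroid hormone, and most of these act as a heterodimer with an RXR receptor. Orphan receptors such as the ESRR and NR4A proteins act without a known physiological ligand or were named before one was found. In the kidney, receptors of these families are known for control of tubular transport, fatty acid oxidation and mitochondrial content. The zebrafish kidney also holds the blood-forming tissue of the adult and the steroid-producing interrenal cells, so a whole-kidney level sums over tubules, blood cells and other cells. In such bulk samples, fewer cells of a type and less RNA per cell cannot be told apart.

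Total counts per library were 24902978 to 52986838 in males and 30714070 to 38758188 in females, and levels are given as CPM, the count per 1000000 counts of the scaled library size. Libraries are called by their column names: M1, M2, pkd1M1 and pkd1M4 are male, and F1, F2, F3, F4 and F6 are female. The names pkd1M1 and pkd1M4 carry the name of a kidney disease gene together with the wild-type mark, while the labels give wild type for every sample. On the first principal component, with 31.2% of the variance, F6 lay at 27.1, against 87.8 to 111 in the other females and -150 to -87.9 in males. Summed proximal tubule markers (14 genes) were 8319 to 13761 CPM in males and 2443 to 8394 CPM in females, with F6 the highest female, above M2, and 3 of 13 tested genes called higher in males, against 7.02% of all tested genes. The called transporter gene slc22a2 alone averaged 6356 CPM in males and 1642 CPM in females, so it made up much of the sum. The other called markers were slc13a3, with 804 CPM in males and 257 CPM in females on average, and slc7a9, with 162 and 36.4 CPM. Their log2 fold changes, male over female, were 1.65 and 2.16. Among the uncalled markers were lrp2a, cubn, slc5a2, slc34a1a and slc26a1. Their log2 fold changes, male over female, were -0.42, 0.10, -0.20, 0.23 and 0.35. These 5 genes were named after their values were seen, and all lay below the median of 0.71 over the 13 tested proximal tubule markers. Distal tubule markers (14 genes) were 1772 to 2973 CPM in males and 443 to 1155 CPM in females, with 8 of 13 tested genes called higher in males, against the same 7.02%. Myeloid markers (17 genes) were 4548 to 8022 CPM in males and 8647 to 11750 CPM in females, with 11 of 17 called lower in males, against 6.20% of all tested genes. Lymphoid markers (16 genes) were 572 to 1031 CPM in males and 1521 to 2649 CPM in females, with 5 of 16 called lower in males, against the same 6.20%. No gene of these 4 lists was at 0 in every library. Oocyte markers reached 5191 CPM in F1, against 167 to 307 CPM in males and 279 to 464 CPM in the other females, and 6 of 16 were called lower in males, against 6.20%. Of the other marker lists, testis had 2 of 11 genes called (18.2%), endothelial 2 of 14 (14.3%) and adipocyte 1 of 6 (16.7%). All of these were higher in males, against 7.02% of all tested genes, and each count is small. Testis markers summed to 63.3 to 114 CPM in males and 24.9 to 46.0 CPM in females. Liver had 0 of 15 genes called, erythroid 0 of 14 and interrenal 0 of 10, with 4, 2 and 1 genes at an unadjusted p under 0.05 in edgeR. Liver markers summed to 1684 CPM in pkd1M4 and 107 to 125 CPM in the other males. In females they summed to 1520 CPM in F2 and 376 to 878 CPM in the others.

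Of the 60 genes, 49 passed the filter on low counts, and 8 of these differed between the sexes at an adjusted p under 0.05 by edgeR (quasi-likelihood fit, p adjusted after Benjamini and Hochberg over all 22148 tested genes). Every adjusted p below comes from that test unless another is named. Transcripts of hnf4g, esrrb, esrra, rorab and nr2f6b were higher in male kidneys, and those of rorca, rorcb and nr4a1 were lower in male kidneys. The 8 called genes were 16.3% of the 49, against 13.2% of all tested genes. The 5 genes higher in males were 10.2%, against 7.02% of all tested genes, and the 3 lower in males were 6.12%, against 6.20%. These shares lie near the background, so the set of receptors as a whole did not stand apart in how often it was called. Called past both thresholds, an adjusted p under 0.05 and a log2 fold change of more than 1.5 in size, were 5 members (10.2%), against 6.54% of all tested genes. All libraries of one sex lay above all of the other for 11 members (22.4%), against 16.5% of all tested genes, with males above in 6 and females above in 5. The median log2 fold change, male over female, was 0.17 over the 49 members and -0.03 over all tested genes. An unadjusted p under 0.05 was reached by 15 of the 49. Without F6, 11 members were called. Without the 2 pkd1-named male libraries 2 were called, rorab and rorcb, and the other called receptors had edgeR adjusted p of 0.0558 (rorca), 0.0562 (esrrb), 0.0677 (hnf4g), 0.0678 (nr4a1), 0.134 (esrra) and 0.135 (nr2f6b). Their log2 fold changes there were -2.67 for rorca, 1.99 for esrrb, 1.67 for hnf4g, -2.23 for nr4a1, 1.24 for esrra and 1.36 for nr2f6b. That fit kept M1 and M2 as the only males, and calls among all genes fell from 2928 to 859 in it. Counts given below without the 2 pkd1-named libraries come from the same fit.

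**Figure D1:**
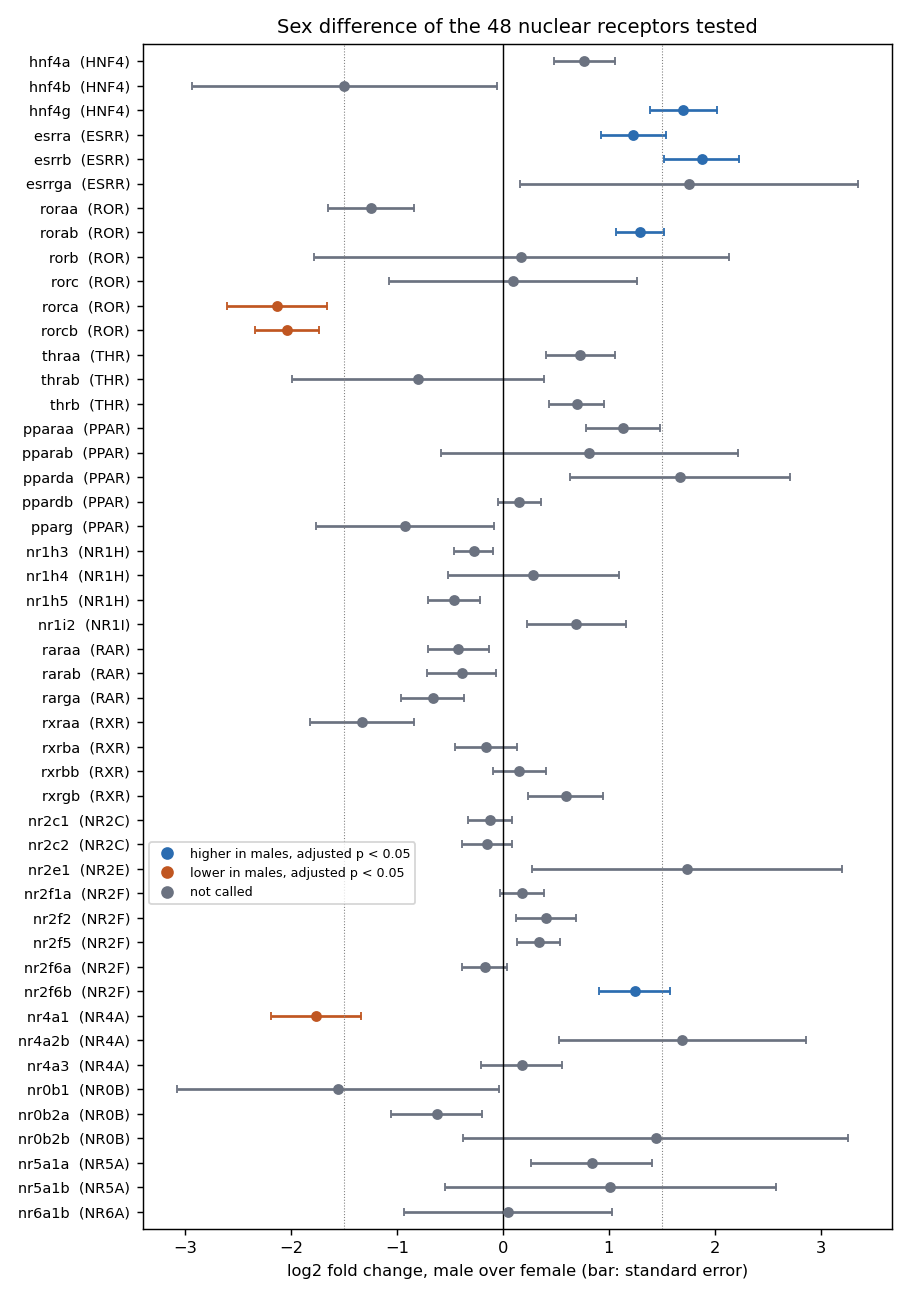
The log2 fold change, male over female, of each of the 48 tested receptors (points) with its standard error (bars), grouped by subfamily from top to bottom, with dotted lines at a size of 1.5. The 5 blue points higher in males lie between 1.23 and 1.88, the 3 orange points lower in males lie between -2.14 and -1.77, and the 40 grey points did not pass the test.

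HNF4 receptors are known for control of transport and metabolic genes in liver, gut and kidney proximal tubule, and hnf4g, the gamma member, was the member of this subfamily that passed the test. The hnf4g gene (ENSDARG00000071565) lies on chromosome 24 from 23646644 to 23675446 in GRCz11. It had 168, 92.5, 120 and 151 CPM in M1, M2, pkd1M1 and pkd1M4, against 30.8, 33.2, 43.9, 24.0 and 72.2 CPM in F1, F2, F3, F4 and F6. Every male library was above every female library, and F6 was the female nearest to the males. The means were 133 ± 33.5 CPM in males (SD, n = 4) and 40.8 ± 18.9 CPM in females (SD, n = 5), a log2 fold change of 1.70 (SE 0.32, edgeR adjusted p = 0.00667).

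The alpha member hnf4a, a main regulator of proximal tubule and liver genes in mammals, did not pass the test. It had 90.3, 95.2, 114 and 88.8 CPM in M1, M2, pkd1M1 and pkd1M4, against 57.3, 37.3, 57.7, 33.8 and 98.6 CPM in F1, F2, F3, F4 and F6. The groups overlapped through F6 alone, and the other 4 females lay below every male. Its log2 fold change was 0.77 (SE 0.29, edgeR adjusted p = 0.116), and without F6 it was 1.06 with an adjusted p of 0.0104. The hnf4a gene overlaps another gene model in the table, so reads of the pair may not be told apart. The beta member hnf4b was low, with at most 1.47 CPM in males and 4.40 CPM in females, and did not pass the test.

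Of 35 tested genes listed as tubule partner factors and HNF4 linked genes, 10 were higher in males and 0 were lower (28.6% called, against 13.2% of all tested genes), with a median log2 fold change of 0.92. They included hnf1bb, a homeobox factor of kidney tubules (log2 fold change 2.29), the sodium-glucose transporter gene slc5a1 (2.53) and pah, phenylalanine hydroxylase (2.91). The organic ion transporter genes slc22a6l (2.66) and slc22a2 (1.95) were called as well. With single libraries left out, 7 to 14 genes of the list were called, and 4 without the 2 pkd1-named libraries. The calls of slc22a6l and slc22a2 were lost without those libraries. This list shares genes with the proximal tubule markers, slc22a2 among them, so the counts of these lists are not separate results. The distal tubule sums given above were higher in every male than in every female, the proximal sums overlapped through F6 and M2, and their part in the HNF4 results was not tested.

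Estrogen-related receptors do not bind estrogen and are known for control of mitochondrial genes together with the PGC-1 coactivators, and both esrra and esrrb were higher in male kidneys. The esrrb gene (ENSDARG00000100847) lies on chromosome 17 from 52300018 to 52386518, and esrra (ENSDARG00000069266) on chromosome 21 from 26606741 to 26634099. The beta member esrrb had 61.2, 54.6, 46.9 and 50.6 CPM in M1, M2, pkd1M1 and pkd1M4, against 10.9, 12.3, 9.23, 9.48 and 30.8 CPM in F1, F2, F3, F4 and F6. The groups did not overlap, the males were close together, and F6 stood above the other females. The means were 53.3 ± 6.10 CPM in males (SD, n = 4) and 14.5 ± 9.19 CPM in females (SD, n = 5). The log2 fold change was 1.88 (SE 0.36, edgeR adjusted p = 0.00726), and the 4 females without F6 averaged 10.5 ± 1.41 CPM (SD, n = 4).

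The alpha member esrra had 20.4, 13.9, 14.6 and 19.1 CPM in M1, M2, pkd1M1 and pkd1M4, against 6.21, 3.92, 7.46, 11 and 7.55 CPM in F1, F2, F3, F4 and F6. The groups did not overlap, with F4 and M2 the nearest libraries. Between the sexes the log2 fold change was 1.23 (SE 0.31, edgeR adjusted p = 0.0244), and the call was lost without M1 (adjusted p = 0.0715), without pkd1M4 (0.0614) or without F1 (0.0556). The gamma copy esrrga had at most 1.47 CPM in any library and did not pass the test, with a log2 fold change of 1.76 (SE 1.6).

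Genes of the mitochondrial (ERR and PGC-1) list were called higher in males for 18 of 37 tested genes and lower for 0 (48.6% called, against 13.2% of all tested genes), and their median log2 fold change was 0.55. The respiratory chain genes uqcrc1 (1.1), cox5ab (0.78), ndufb5 (1.12) and uqcrfs1 (0.89) were among the genes higher in males, given here as log2 fold changes. The count was 10 without M1, 11 without M2, 10 without F2, 22 without F6 and 5 without the 2 pkd1-named libraries, where the call of ndufb5 was lost. Calls among all genes moved as well, from 2928 to between 1948 and 3343 with single libraries left out. They fell to 859 without the 2 pkd1-named libraries. The coactivator gene ppargc1a had 12 ± 6.87 CPM in males (SD, n = 4) and 3.55 ± 2.22 CPM in females (SD, n = 5) and did not pass the test (edgeR adjusted p = 0.0612).

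ROR receptors activate genes through single response elements that Rev-erb repressors share, and they are known from the circadian clock and, for the gamma member in mammals, from lymphocytes. Here 3 of 6 ROR genes were called, against 13.2% of all tested genes, and in opposite directions. The alpha copy rorab (ENSDARG00000001910, chromosome 7 from 29538628 to 29625509) had 42.2, 53.4, 32.8 and 37.6 CPM in M1, M2, pkd1M1 and pkd1M4, against 14.6, 19.3, 12.6, 15.6 and 22.5 CPM in F1, F2, F3, F4 and F6. All males were above all females, with means of 41.5 ± 8.81 CPM in males (SD, n = 4) and 16.9 ± 3.97 CPM in females (SD, n = 5). The log2 fold change was 1.29 (SE 0.22, edgeR adjusted p = 0.00459).

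The gamma copies moved the other way. The rorcb gene (ENSDARG00000017780, chromosome 2 from 49417900 to 49454451) had 5.59, 7.73, 6.56 and 7.0 CPM in M1, M2, pkd1M1 and pkd1M4, against 20.6, 32.9, 32.6, 14.5 and 37.6 CPM in F1, F2, F3, F4 and F6. The 4 males lay within a narrow band, below every female. Its log2 fold change was -2.04 (SE 0.31, edgeR adjusted p = 0.00225), the smallest adjusted p among the 49 members. The rorca gene (ENSDARG00000057231, chromosome 8 from 18885108 to 18899427) had 6.42, 2.67, 5.98 and 11.2 CPM in M1, M2, pkd1M1 and pkd1M4, against 18.1, 31.2, 30.8, 14.1 and 50.2 CPM in F1, F2, F3, F4 and F6. The groups again did not overlap, with pkd1M4 the highest male, F4 the lowest female and F6 the highest female. For rorca the log2 fold change was -2.14 (SE 0.47, edgeR adjusted p = 0.0148). The calls of rorab, rorca and rorcb held with each of the 9 libraries left out in turn.

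The lymphoid and myeloid marker sums, like rorca and rorcb, were lower in every male than in every female library, and their part in the result was not tested. Among the lymphoid markers, il7r, the interleukin-7 receptor gene, had a log2 fold change of -1.5, and zap70, a T cell kinase gene, one of -1.23. Both were named after their values were seen, and the median over the 16 tested lymphoid markers was -1.37. The third symbol of the gamma type, rorc, had 0 to 3.70 CPM in males and 0.820 to 1.5 CPM in females and did not pass the test, nor did rorb, with at most 1.1 CPM in any library.

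Rev-erb and clock partners of ROR were called for 20 of 34 tested genes, 17 higher and 3 lower in males (58.8%, against 13.2% of all tested genes), with a median log2 fold change of 0.95. The Rev-erb gene nr1d1, which encodes the repressor that shares its sites with ROR, averaged 81.4 ± 20.3 CPM in males (SD, n = 4) and 10.4 ± 2.82 CPM in females (SD, n = 5), a log2 fold change of 2.97. The clock output factor dbpb (2.59) and the period genes per2 (1.84) and per1b (1.74) were higher in males, while the clock repressor bhlhe40 (-1.33) was lower. With single libraries left out 17 to 20 were called, and 15 without the 2 pkd1-named libraries. The hour of kidney collection is not given in the labels or methods, so sex and hour cannot be told apart for genes with a daily rhythm.

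**Figure D2:**
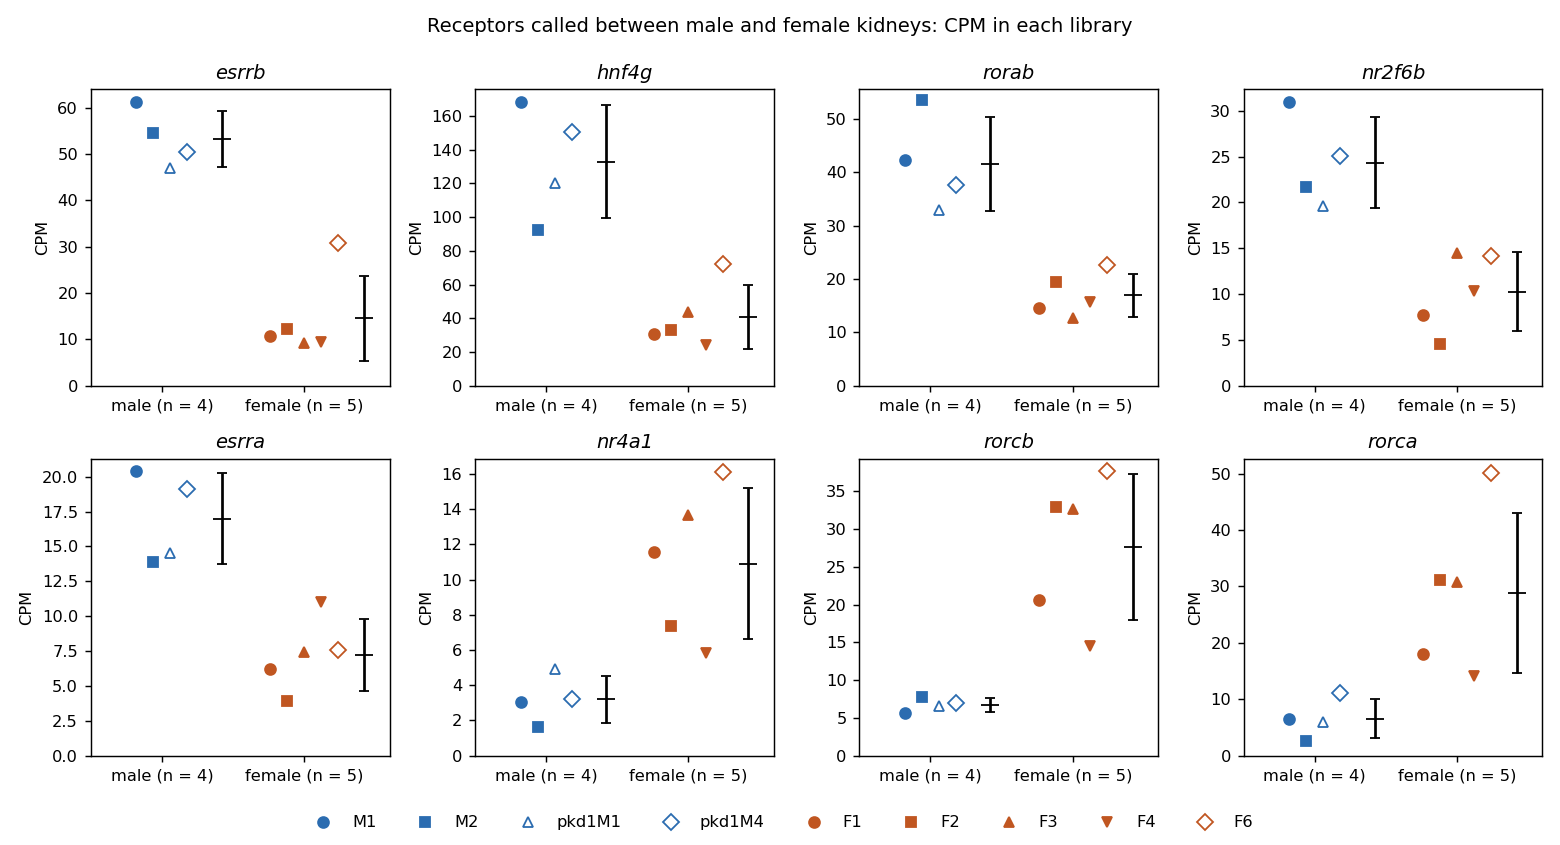
CPM of the 8 called receptors in each of the 4 male (blue) and 5 female (orange) libraries, with the mean and SD as black bars and hollow symbols for pkd1M1, pkd1M4 and F6. In each panel all libraries of one sex lie above all of the other, with esrrb, hnf4g, rorab, nr2f6b and esrra higher in males and nr4a1, rorcb and rorca lower, and F6 is the highest female for esrrb at 30.8 CPM.

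Many of these receptors have a and b copies from the genome duplication of bony fishes, and the balance of the copies was compared as the log2 ratio of counts within each library. This ratio is not corrected for transcript length, so it was read only between the sexes. Of 12 pairs of tested symbols 2 differed between the sexes at an adjusted p under 0.05 in limma, 16.7%, against 15.6% of the 2040 pairs in the whole table. All pairs were matched only by a last letter a or b. The 12 therefore include esrra/esrrb and hnf4a/hnf4b, whose letters mark alpha and beta members and not 2 copies of a gene. The roraa/rorab log2 ratio was -3.73, -4.26, -3.56 and -4.29 in M1, M2, pkd1M1 and pkd1M4, against -0.99, -2.17, -0.27, -1.62 and -2.46 in F1, F2, F3, F4 and F6. The ratio was lower in every male, with a difference of -2.46 (SE 0.51, limma adjusted p = 0.00682), and the call held with each library left out. The copy roraa itself had 3.12, 2.73, 2.74 and 1.87 CPM in M1, M2, pkd1M1 and pkd1M4, against 7.29, 4.26, 10.5, 5.04 and 4.04 CPM in F1, F2, F3, F4 and F6. These groups did not overlap, but the log2 fold change of -1.25 did not pass edgeR's test (adjusted p = 0.0690), while DESeq2 gave an adjusted p of 0.0226. In contrast, the rorca/rorcb ratio did not pass the test (difference -0.20, SE 0.45, limma adjusted p = 0.828).

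**Figure D3:**
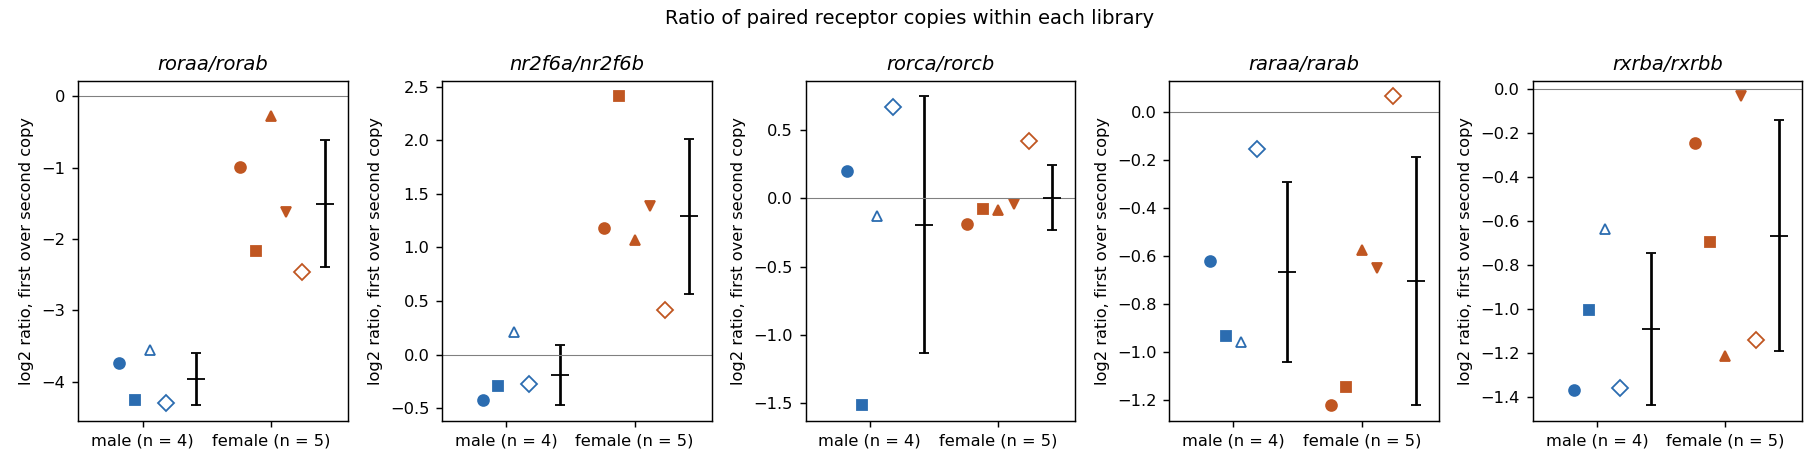
The log2 ratio of counts of 2 receptor copies within each male (blue, n = 4) and female (orange, n = 5) library, with the mean and SD as black bars and hollow symbols for pkd1M1, pkd1M4 and F6. The roraa/rorab and nr2f6a/nr2f6b ratios are lower in every male than in every female, and the rorca/rorcb, raraa/rarab and rxrba/rxrbb ratios overlap.

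The NR2F receptors (COUP-TF family) are orphan receptors known mainly as repressors and as regulators of cell fate in vessels and nephron, and 1 of the 5 tested was called, a share near the 13.2% of all tested genes. The nr2f6b gene (ENSDARG00000003165, chromosome 11 from 6115621 to 6134583) had 31.0, 21.7, 19.6 and 25.1 CPM in M1, M2, pkd1M1 and pkd1M4, against 7.74, 4.54, 14.5, 10.4 and 14.2 CPM in F1, F2, F3, F4 and F6. All males were above all females, with pkd1M1 the male nearest to F3. Its log2 fold change was 1.24 (SE 0.34, edgeR adjusted p = 0.0340). This call was the least stable of the 8, since it was lost without any one of M1, M2, pkd1M1, pkd1M4, F1 or F4, with adjusted p up to 0.0982.

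Its partner copy nr2f6a averaged 21.1 ± 2.46 CPM in males (SD, n = 4) and 23.7 ± 5.46 CPM in females (SD, n = 5) and did not pass the test. The nr2f6a/nr2f6b log2 ratio was -0.42, -0.29, 0.21 and -0.28 in M1, M2, pkd1M1 and pkd1M4, against 1.18, 2.41, 1.07, 1.38 and 0.41 in F1, F2, F3, F4 and F6. The difference of -1.49 (SE 0.40, limma adjusted p = 0.0268) was lost without M1, M2, pkd1M4 or F4. For nr2f2, known from venous vessels, there were 68.7, 34.5, 31.9 and 77.3 CPM in M1, M2, pkd1M1 and pkd1M4, against 40.6, 30.1, 40.8, 45.9 and 42.9 CPM in F1, F2, F3, F4 and F6. For nr2f5 there were 73.4, 108, 78.1 and 59.1 CPM in M1, M2, pkd1M1 and pkd1M4, against 58.6, 55.8, 72.5, 53.1 and 74.8 CPM in F1, F2, F3, F4 and F6. Both overlapped between the sexes, with log2 fold changes of 0.41 (SE 0.28) and 0.34 (SE 0.20), and nr2f1a, at 0.18 (SE 0.21), did not pass the test either.

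NR4A receptors are made as immediate early genes, within a short time of a stimulus, and nr4a1 was lower in male kidneys. The gene (ENSDARG00000000796, chromosome 23 from 32149269 to 32194397) had 3.03, 1.63, 4.89 and 3.23 CPM in M1, M2, pkd1M1 and pkd1M4, against 11.6, 7.36, 13.7, 5.81 and 16.1 CPM in F1, F2, F3, F4 and F6. The groups did not overlap, though pkd1M1 lay close below F4. For nr4a1 the log2 fold change was -1.77 (SE 0.43, edgeR adjusted p = 0.0215), and the call was lost without M1 (adjusted p = 0.0586) or without pkd1M4 (0.0529). The related nr4a3 had 4.47, 7.77, 9.36 and 3.20 CPM in M1, M2, pkd1M1 and pkd1M4, against 6.68, 4.71, 5.57, 6.63 and 3.81 CPM in F1, F2, F3, F4 and F6. It overlapped between the sexes. The log2 fold change of nr4a2b was 1.69 (SE 1.17), with 0.173, 5.03, 11.3 and 4.30 CPM in M1, M2, pkd1M1 and pkd1M4, against 2.76, 2.12, 0, 0.911 and 2.27 CPM in F1, F2, F3, F4 and F6, and M1 was among the lowest libraries while pkd1M1 was the highest.

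Of 31 other immediate early genes tested, 2 were higher and 5 lower in males (22.6% called, against 13.2%), with a median log2 fold change of -0.85. The stress-response factor gene atf3 averaged 8.34 ± 2.92 CPM in males (SD, n = 4) and 69.1 ± 34.8 CPM in females (SD, n = 5), a log2 fold change of -3.05, and the NF-kB inhibitor gene nfkbiaa (-2.38) and ier5 (-0.96) were also lower in males. In contrast, fosl1a (2.78) and per1a (2.37), which is also a clock gene, were higher in males. Without the 2 pkd1-named libraries 4 of these genes were called, and the calls of atf3 and ier5 were lost. The myeloid marker sum was lower in every male than in every female, and its part in the nr4a1 result was not tested.

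PPAR receptors are fatty acid sensors that switch on fatty acid oxidation (the alpha and delta types) or fat storage (the gamma type), and none of the 5 tested PPAR genes passed the test. The alpha copy pparaa had 21.1, 25.6, 18.1 and 18.4 CPM in M1, M2, pkd1M1 and pkd1M4, against 7.49, 4.65, 9.30, 8.04 and 17.9 CPM in F1, F2, F3, F4 and F6. Every male lay above every female, with F6 just below pkd1M1. For pparaa the log2 fold change was 1.13 (SE 0.35, edgeR adjusted p = 0.0586), and 1.5 without F6, with an adjusted p of 0.00630. DESeq2 on all libraries gave an adjusted p of 0.0183. The delta copy ppardb had 32.3, 21.9, 39.6 and 38.0 CPM in M1, M2, pkd1M1 and pkd1M4, against 31.2, 27, 32.5, 24.3 and 32.9 CPM in F1, F2, F3, F4 and F6. It overlapped between the sexes (log2 fold change 0.15, SE 0.21). The low genes pparab, pparda and pparg had at most 4.25 CPM in males and 3.80 CPM in females.

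Among fatty acid oxidation (PPAR) genes 13 of 46 tested were higher in males and 0 lower (28.3% called, against 13.2%), with a median log2 fold change of 0.33. The peroxisomal oxidase gene acox3 (4.05) and ehhadh (2.56), a peroxisomal enzyme of beta-oxidation, were among them, as were the uncoupling protein genes ucp3 (3.13) and ucp2 (2.11). The count was 9 to 17 with single libraries left out and 6 without the 2 pkd1-named libraries. Of mitochondrial beta-oxidation genes, cpt2 (0.30), acadm (0.21), acadvl (0.20) and acadl (-0.0076) were not called, while echs1 (0.94) was called. These were named after their values were seen.

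Liver X and farnesoid X receptors (NR1H) sense oxysterols and bile acids, and none of the 3 was called. The LXR gene nr1h3 had 62.5, 66.6, 57.7 and 45.5 CPM in M1, M2, pkd1M1 and pkd1M4, against 75.3, 76.6, 83.4, 53.7 and 62.1 CPM in F1, F2, F3, F4 and F6. The groups overlapped, with a log2 fold change of -0.27 (SE 0.19, edgeR adjusted p = 0.398). The second FXR-type gene nr1h5 had 25.3, 25.5, 38.4 and 24.7 CPM in M1, M2, pkd1M1 and pkd1M4, against 29.1, 34.4, 46.7, 30.6 and 55.5 CPM in F1, F2, F3, F4 and F6. Apart from pkd1M1, every male was below every female, and it had a log2 fold change of -0.46 (SE 0.24, edgeR adjusted p = 0.264), and it overlaps another gene model in the table. The FXR gene nr1h4 had 0.449 to 6.07 CPM in males and 0.974 to 7.11 CPM in females.

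Sterol and bile acid (LXR and FXR) genes were called for 10 of 30 tested, 8 higher and 2 lower in males (33.3%, against 13.2%), with a median log2 fold change of 0.16. The bile salt export pump gene abcb11a (2.58), the transporter genes abcc2 (2.72) and slc10a2 (2.69), a bile acid uptake carrier, and the fatty acid synthase gene fasn (1.89) were higher in males. The apolipoprotein E gene apoeb (-2.76) was lower, with 6.84 CPM in males and 46.5 CPM in females on average. With single libraries left out 9 to 10 were called, and 6 without the 2 pkd1-named libraries.

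The pregnane X receptor gene nr1i2, a sensor of foreign chemicals, had 9.15, 27.2, 20.4 and 14.5 CPM in M1, M2, pkd1M1 and pkd1M4, against 5.29, 8.74, 19, 5.15 and 16.9 CPM in F1, F2, F3, F4 and F6. The groups overlapped widely (log2 fold change 0.69, SE 0.47, edgeR adjusted p = 0.396). Of 31 tested xenobiotic (PXR) genes 7 were higher and 1 lower in males (25.8% called, against 13.2%), with a median log2 fold change of 0.56. The 7 hold 2 gene models under a shared symbol, and abcc2, which the sterol and bile acid list also counts. Among them were porb (1.77), which encodes the electron donor of cytochromes P450, the sulfotransferase gene sult2st1 (2.45) and the P450 genes cyp2n13 (1.59) and cyp2p6 (0.96). The count was 4 without M1, 5 without pkd1M1, 12 without F6 and 3 without the 2 pkd1-named libraries. The call of cyp2n13 was lost without M1 (edgeR adjusted p = 0.0533), and those of cyp2p6 and sult2st1 without the 2 pkd1-named libraries.

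Retinoic acid receptors and their RXR partners gave no call among 3 and 4 tested genes. The gamma receptor copy rarga had 14.1, 31.8, 16.3 and 12.2 CPM in M1, M2, pkd1M1 and pkd1M4, against 33.2, 32.7, 34.6, 24.4 and 22.4 CPM in F1, F2, F3, F4 and F6. Only M2 reached the female range, and the log2 fold change of -0.66 (SE 0.30, edgeR adjusted p = 0.181) was -1.05 without M2, with an adjusted p of 0.0213. The alpha copy rarab had 19.4, 23.1, 18.1 and 7.84 CPM in M1, M2, pkd1M1 and pkd1M4, against 31.5, 19.3, 27, 18.5 and 15.9 CPM in F1, F2, F3, F4 and F6. It overlapped, as did raraa (log2 fold change -0.42, SE 0.29). The RXR copy rxrbb had 24.3, 24.1, 39.0 and 32.8 CPM in M1, M2, pkd1M1 and pkd1M4, against 23.5, 24.5, 38.0, 17.8 and 31.0 CPM in F1, F2, F3, F4 and F6, with a log2 fold change of 0.16 (SE 0.25). Another RXR copy, rxrgb, which overlaps a gene model of another symbol, had 25.7, 10.9, 9.79 and 31.1 CPM in M1, M2, pkd1M1 and pkd1M4, against 15.9, 11.14, 14.9, 10.7 and 11.6 CPM in F1, F2, F3, F4 and F6. M1 and pkd1M4 were above all females and the other males were below most of them, with a log2 fold change of 0.59 (SE 0.36). The log2 fold change of rxrba was -0.16 (SE 0.29).

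The alpha copy rxraa, named after its values were seen because its groups did not overlap, had 3.16, 4.60, 2.56 and 0.834 CPM in M1, M2, pkd1M1 and pkd1M4, against 6.29, 4.91, 10.4, 8.27 and 5.18 CPM in F1, F2, F3, F4 and F6. The lowest female, F2, was just above the highest male, M2. The log2 fold change of -1.33 (SE 0.49) did not pass edgeR's test (adjusted p = 0.107), while DESeq2 gave an adjusted p of 0.0448. In the retinoid metabolism and carriers list 7 of 31 tested genes were called, 2 higher and 5 lower in males (22.6%, against 13.2%), with a median log2 fold change of -0.22. Of the dehydrogenase/reductase family, dhrs9 (2.56) and dhrs3b (3.19) were higher in males, while dhrs3a (-3.29), the other copy of dhrs3b, named after its values were seen, was lower, with 1.84 CPM in males and 18.0 CPM in females on average. The retinol-binding protein genes rbp7a (-3.39) and rbp5 (-1.63) and the retinoic acid-degrading enzyme gene cyp26b1 (-3.04) were lower in males. The call of rbp5 was lost without the 2 pkd1-named libraries. The dhrs9 gene averaged 1039.7 ± 148 CPM in males (SD, n = 4) and 176 ± 43.8 CPM in females (SD, n = 5).

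**Figure D4:**
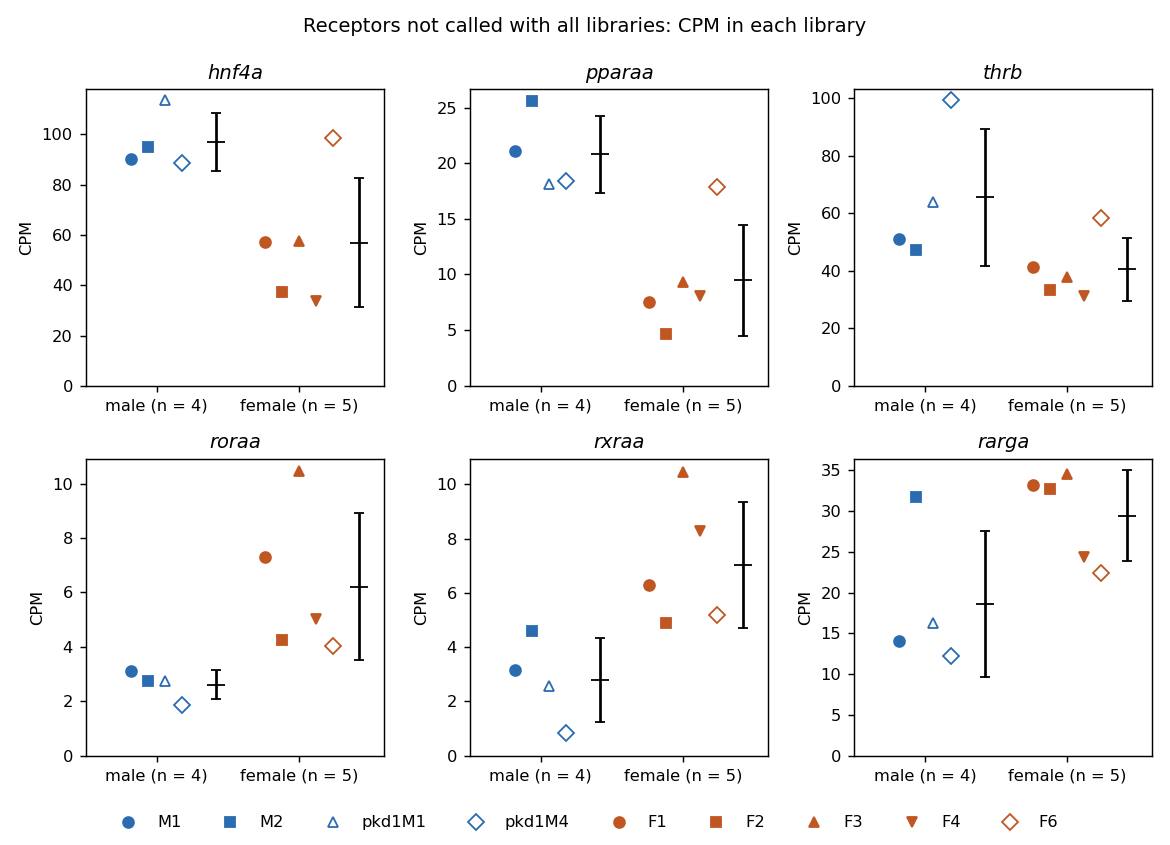
CPM of 6 receptors that did not pass the test with all libraries, in each male (blue, n = 4) and female (orange, n = 5) library, with the mean and SD as black bars. F6 (hollow diamond, right) reaches the male range for hnf4a at 98.6 CPM and thrb at 58.4 CPM and lies just below it for pparaa at 17.9 CPM, and M2 (square, left) reaches the female range for rarga at 31.8 CPM.

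Thyroid hormone receptors repress their targets without hormone and activate them with it, and none of the 3 genes was called. The beta receptor gene thrb had 51.1, 47.3, 63.9 and 99.4 CPM in M1, M2, pkd1M1 and pkd1M4, against 41.2, 33.4, 37.9, 31.1 and 58.4 CPM in F1, F2, F3, F4 and F6. F6 alone overlapped the males, and the log2 fold change of 0.70 (SE 0.26, edgeR adjusted p = 0.115) was 0.87 without F6, with an adjusted p of 0.0433. The alpha copy thraa had 9.36, 21.1, 10.3 and 14.3 CPM in M1, M2, pkd1M1 and pkd1M4, against 8.91, 6.40, 7.68, 6.04 and 12.4 CPM in F1, F2, F3, F4 and F6. It also overlapped through F6 alone (log2 fold change 0.73, SE 0.33, edgeR adjusted p = 0.179). Both genes overlap other gene models in the table. The second alpha copy thrab had at most 0.962 CPM in males and 2.11 CPM in females.

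Of 13 tested genes of thyroid hormone supply and response, 5 were higher and 0 lower in males (38.5% called, against 13.2%), with a median log2 fold change of 0.81. The response gene klf9, named after its values were seen, was not called (log2 fold change -0.0052, SE 0.91). The deiodinase gene dio2, whose enzyme converts thyroxine to the active hormone, averaged 374 ± 139 CPM in males (SD, n = 4) and 26.0 ± 20.1 CPM in females (SD, n = 5), a log2 fold change of 3.85 (SE 0.56, edgeR adjusted p = 0.00197). A second deiodinase gene, dio1 (2.08), and the transporter genes slc16a10 (0.88) and slc7a8a (1.29) were also called. So was cry1a (0.95), which is also a clock gene, and the limit on the hour of collection given above holds for it. The call of slc7a8a was lost without any one of M2, pkd1M4, F1, F2 or F3, and 3 genes of the list were called without the 2 pkd1-named libraries, where slc16a10 was also lost.

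The NR5A and NR0B receptors are known from steroid-producing tissue, where nr5a1a, a copy of the steroidogenic factor gene, activates steroid enzymes and nr0b1 restrains it. The nr5a1a gene had 2.17, 2.9, 9.74 and 2.77 CPM in M1, M2, pkd1M1 and pkd1M4, against 2.78, 3.89, 1.09, 2.62 and 1.94 CPM in F1, F2, F3, F4 and F6. The value of pkd1M1 stood above all others. Interrenal markers, a list that includes nr5a1a itself, summed to 1090 CPM in pkd1M1 and 509 CPM in M2. The sums were 11.5 CPM in M1, 30.3 CPM in pkd1M4 and 63.3 to 289 CPM in females. For nr5a1a the log2 fold change was 0.84 (SE 0.57, edgeR adjusted p = 0.403). The other tested copy nr5a1b had 0.217, 0, 2.18 and 0.467 CPM in M1, M2, pkd1M1 and pkd1M4, against 0, 0.479, 0.0242, 0.934 and 0.334 CPM in F1, F2, F3, F4 and F6. It was again highest in pkd1M1. In the interrenal steroid list 1 of 18 tested genes was called (5.56%, against 13.2%), fdx1, an electron donor of mitochondrial P450 enzymes (log2 fold change 3.71), and 2 were called without M1 or without F6. The median log2 fold change of this list was 1.30, though few of its genes passed the test. Its genes summed to 990 to 2655 CPM in males and 265 to 1029 CPM in females, which overlap.

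The short partner nr0b2a, a receptor without a DNA-binding domain that represses others in mammals, had 2.82, 1.73, 1.9 and 2.9 CPM in M1, M2, pkd1M1 and pkd1M4, against 2.59, 3.58, 4.87, 2.42 and 4.58 CPM in F1, F2, F3, F4 and F6. It overlapped between the sexes (log2 fold change -0.62, SE 0.43), and nr0b1 and nr0b2b had at most 1.57 CPM in any library. The testicular receptors nr2c1 and nr2c2, orphan receptors that bind direct repeats, had log2 fold changes of -0.12 (SE 0.21) and -0.15 (SE 0.23). The nr2c2 gene had 19.6, 39.9, 22.0 and 22.5 CPM in M1, M2, pkd1M1 and pkd1M4, against 31.9, 25.6, 28.6, 24.6 and 33.5 CPM in F1, F2, F3, F4 and F6, with M2 above every other library. The neural receptor nr2e1 had at most 1.27 CPM in any library and nr6a1b, a germ cell receptor in mammals, at most 4.17 CPM. The name match nr2c2ap had 1.70 to 5.29 CPM in males and 0.0969 to 8.16 CPM in females, and none of these passed the test.

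Coactivators and corepressors, which the receptors recruit, were called for 3 of 34 tested genes, 0 higher and 3 lower in males (8.82%, against 13.2% of all tested genes), with a median log2 fold change of -0.12. The called genes included bcl3 (-1.68) and tacc3 (-1.31). The call of tacc3 was lost without pkd1M1 or without pkd1M4. Without F6, 5 genes of the list were called, and without the 2 pkd1-named libraries 0 were.

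**Figure D5:**
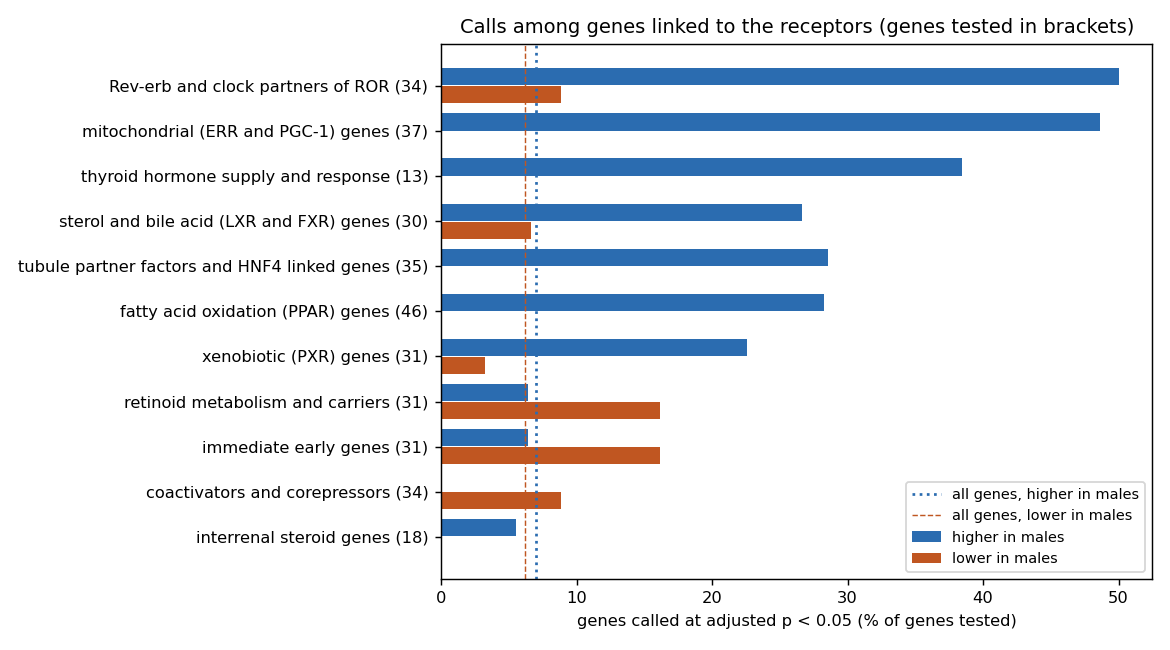
Share of the tested genes of each of 11 linked lists that were called higher in males (blue bars) or lower in males (orange bars) at an adjusted p under 0.05, in percent, with the number tested in brackets and lines at the shares of all tested genes (7.02% and 6.20%). The clock partner list holds 20 calls among 34 genes, and the coactivator and corepressor list 3 among 34.

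The other 11 genes were too low to be tested: esrrd, esrrgb, nr2e3, nr2f1b, nr4a2a, nr5a2, nr5a5, rargb, rxrab and the 2 models of nr6a1a. Their highest count in any library was 84. The rargb gene had 0 counts in all 9 libraries, where 3 counts, the limit that a count of 0 allows, correspond to 0.0641 to 0.130 CPM. The limit covers counting error only.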

How the data were processed

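Per the labels, RNA of kidneys of wild-type zebrafish was extracted with Trizol and made into Illumina TruSeq version 2 libraries, a kit that does not mark strand. The authors pseudoaligned paired reads with Kallisto and summed transcripts to genes with tximport, and deposited estimated counts per gene. The column names give the scaled TPM form and the methods a length-scaled one, so levels were not compared between genes. The methods name GRCz11, from which coordinates are given as deposited, while the processing notes name GRCz10. Estimated counts were rounded.

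The 3 column names pkd1M1, pkd1M4 and F6 gave a sex but no sample number and were used as libraries of that sex. Nothing says whether libraries came from 1 fish each, so p-values measure the spread between libraries. No pair of libraries of the same sex agreed within sampling noise, and 0 per-sample columns were left unused. Pairs of a male and a female library were not compared in this way. Genes were filtered with filterByExpr, scaled by TMM and tested for male over female with edgeR 4.0.16 (quasi-likelihood, Benjamini-Hochberg) in R 4.3.3. Log2 ratios of symbol pairs used a prior count of 2 and limma 3.58.1. Alternatives were RLE scaling, DESeq2 1.42.0, other filters, libraries left out and a replicate block. The fits were tested on simulated data. Figures used matplotlib 3.10.9.

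The rule for the members used gene symbols alone. That rule, the 11 linked gene lists and the 11 marker lists were set with earlier results of these data known. Values in every library were given for each called receptor and for up to 2 others per subfamily with the largest mean CPM, and up to 5 called genes with the smallest p were named per list. The genes dhrs3a, ppargc1a, il7r, zap70, rxraa, lrp2a, cubn, slc5a2, slc34a1a and slc26a1 were named after their values were seen. So were cpt2, acadm, acadvl, acadl, echs1 and klf9. Lists were described by counts and medians, with no test of the list. Some genes of the lists are not reported here by name.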

Additional observations from a re-analysis of the deposited data

Results flagged for a closer look

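The 4 male and 5 female libraries of 38 members, 76 groups in all, were checked for a library set apart from the rest of its sex by Dixon's criterion, and 5 were found, where chance gives about 1 in 20. Not all of the 49 tested members were in this check, so other libraries set apart may be missed. The esrrb level in F6 was 30.8 CPM, against 9.23 to 12.3 CPM in the other females. The nr1h5 level in pkd1M1 was 38.4 CPM, against 24.7 to 25.5 CPM in the other males. The nr2c2 level in M2 was 39.9 CPM, against 19.6 to 22.5 CPM in the other males. The nr5a1a level in pkd1M1 was 9.74 CPM, against 2.17 to 2.9 CPM in the other males. The rorc level in pkd1M4 was 3.70 CPM, against 0 to 0.477 CPM in the other males.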

How the results depend on the processing

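With single libraries left out, the receptors called at an adjusted p under 0.05 numbered 5 (without M1 or pkd1M4) to 11 (without F6), against 8, and 4 to 5 past both thresholds. All genes called numbered 1948 (without pkd1M1) to 3343 (without F6), against 2928, and 1086 to 1707 past both thresholds, against 1448. Called pairs numbered 1 (without M1, M2, pkd1M4 or F4) to 2, and 214 to 315 of all pairs, against 318. The calls of esrrb, hnf4g, rorab, rorca and rorcb held in all 9 of these fits. Without both pkd1-named libraries, 2 receptors were called (rorab and rorcb), 1 past both thresholds, with 859 and 635 of all genes, 1 receptor pair and 138 of all pairs. DESeq2 called 11 receptors, adding pparaa, roraa and rxraa, and 4188 genes in all. RLE scaling and no filter called 8 receptors each, and a minimum of 10 counts in every library called 10.

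Replicate numbers were shared by M1, M2, F1 and F2 alone. Deviations of same-numbered libraries from the mean of their sex were not correlated (-0.000325). With so few libraries this value cannot tell whether same-numbered samples were paired. On these 4 libraries the replicate block gave 4 called receptors, 905 genes in all and 859 past both thresholds, and no block gave 1 receptor, 1 past both thresholds, with 363 and 355 genes.

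The results whose sign changed were all uncalled. With single libraries left out, log2 fold changes ranged from -0.092 to 0.39 for nr4a3, -0.63 to 1.76 for nr5a1b, -1.22 to 0.45 for nr6a1b, -1.85 to 0.51 for rorc and -0.82 to 0.14 for nr2c2ap, and the rorca/rorcb difference from -0.49 to 0.24. Without the pkd1-named libraries the values were 0.042 for nr2c2, -1.70 for nr5a1b, -1.14 for nr6a1b, -0.13 for ppardb, -2.17 for rorc and -0.16 for rxrbb. With the replicate block they were 1.17 for nr0b1, -1.20 for nr4a2b, -0.39 for nr5a1a, -2.0 for nr6a1b, -0.13 for ppardb and -3.34 for rorc, and without the block 1.12 for nr0b1, 0.050 for nr2c2, -0.40 for nr5a1a, -0.71 for nr6a1b, -0.10 for ppardb and -1.98 for rorc. The cause was not tested. The low genes among these had few counts, which limits their precision.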
